A study of Rattus norvegicus with 4 samples.

Results

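The skeletal miRNA cluster of rno-miR-199a and rno-miR-214 is a pair of miRNA genes, Mir199a2 and Mir214, that yield 4 mature products. All miRNAs in the deposited table whose name carries the number of either gene were taken, whatever their letter or arm, which gave rno-miR-199a-5p, rno-miR-199a-3p, rno-miR-214-5p and rno-miR-214-3p, or 4 of 740 miRNA names. All 4 products had reads in all 4 libraries, and each was listed at 1 locus on chromosome 13. In the RefSeq annotation of the rat assembly GRCr8, both genes lie inside Dnm3, on the strand opposite to it.

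The libraries were small RNA from costochondral chondrocytes of male Sprague Dawley rats at passage 4, grown to confluence. The age of the animals is not given in the sources used here. RC-cells came from the resting zone and GC-cells from the growth zone, where chondrocytes are more mature. Whether cultures were pooled is not given in the sources used here. RC-MVs and GC-MVs are the matrix vesicles of these cultures, membrane particles held in the cartilage matrix, which were collected by trypsin digestion of the cell layer and stepwise centrifugation. There was 1 library per condition, so no difference has a replicate check and no p-value was computed, and all intervals are 95% intervals for counting error.

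A mammalian miRNA gene gives a hairpin whose arms, 5p and 3p, are cut out as a duplex, and one strand of the duplex is loaded into an Argonaute protein, where bases 2 to 8, the seed, pair with target mRNAs. miR-199a-2 and miR-214 are processed from Dnm3os, a long transcript antisense to Dnm3 that Twist1 activates in mesenchyme, and mice without Dnm3os have skeletal defects. miR-199a-3p, the strand once called miR-199a*, is known to target Smad1, which carries BMP signals in early chondrogenesis. miR-199a-5p is known to target Hif1a, and miR-214-3p to target Atf4, a transcription factor of osteoblasts. Mammals carry further miR-199 genes in Dnm1 and Dnm2, of which the table holds none. Reads of such copies could not be told apart from those of Mir199a2 where the mature sequences match. Whether this touches both arms alike was not tested.

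The mature sequences are shown from RefSeq (GRCr8, plus strand), with the seed in capitals, because the products are compared by arm and by base composition.
miR-199a-5p (chr13:77116255-77116277): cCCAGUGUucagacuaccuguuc
miR-199a-3p (chr13:77116294-77116315): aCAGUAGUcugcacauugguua
miR-214-5p (chr13:77121656-77121672): aGAGUUGUcaugugucu
miR-214-3p (chr13:77121713-77121733): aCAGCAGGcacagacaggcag

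The 4 seeds differ from each other, and among the 660 miRNAs of the table with a mature sequence in RefSeq, no other miRNA had bases 2 to 8 of any of them. Over the shorter stretch of bases 2 to 7, miR-6324 matched miR-199a-3p and miR-219a-1-3p matched miR-214-5p. The closest other sequence to miR-214-3p differed by 6 edits and that to miR-199a-5p by 9, and none of those 660 was near-identical to them. G+C content was 61.9% for miR-214-3p, 52.2% for miR-199a-5p, 41.2% for miR-214-5p and 40.9% for miR-199a-3p. The Mir214 hairpin (chr13:77121645-77121752, GRCr8, plus strand) is shown with both mature arms in capitals, since the annotated 5p arm is only 17 bases long against 21 for the 3p arm.
Mir214 hairpin: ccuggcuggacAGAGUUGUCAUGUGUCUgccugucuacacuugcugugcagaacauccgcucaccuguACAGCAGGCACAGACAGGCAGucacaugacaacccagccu

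The opposite strand of this hairpin encodes miR-3120, whose mature sequence overlaps miR-214-5p by 1 base and miR-214-3p by 0 bases. It had 1 read in RC-cells and 0 in GC-cells, and 2 reads in each vesicle library. Reads of miR-3120 were thus at or below the floor of 3 reads, while the least abundant product of Mir214 had at least 253. Other reads from the antisense strand were not counted.

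The cell libraries held 6517329 (RC) and 7414467 (GC) miRNA reads, and the vesicle libraries 1108821 (RC) and 982543 (GC). A count of 0 allows up to 3 reads, which is 0.000305% of the shallowest library. Of the cartilage markers, miR-140-3p held between 0.383% and 0.951% of miRNA reads in all 4 libraries. miR-675-5p was at 0 reads in each of them. The 6 cartilage miRNAs summed to 0.526% in RC-cells and 1.00% in RC-MVs, and to 0.636% in GC-cells and 0.841% in GC-MVs. The 3p arms of miR-140 and miR-455 held more in MVs than in cells of both zones, and their 5p arms less. For miR-140-5p the shares were 0.0710% in RC-cells and 0.00848% in RC-MVs, and 0.0808% in GC-cells and 0.0216% in GC-MVs. The 6 blood miRNAs of the table summed to between 0.00121% and 0.00124% in the cell libraries, to 0.0885% in RC-MVs and to 0.190% in GC-MVs. The liver miRNA miR-122-5p held under 0.001% in both cell libraries, 0.401% in RC-MVs and 1.14% in GC-MVs. Muscle miRNAs summed to at most 0.00733% and endothelial miRNAs to at most 0.0640%, both in GC-MVs. The part of these other miRNAs in the vesicle-to-cell ratios of the cluster was not tested.

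Summed over its 4 products, the cluster's share of all miRNA reads was 3.77% for cells and 1.41% for MVs of the resting zone, and 2.39% for cells and 1.45% for MVs of the growth zone. By these percents the cells of the zones stood further apart than their vesicles. With the 3 abundant miRNAs miR-21-5p, miR-143-3p and miR-22-3p kept out of the totals the order turned, with ratios of RC to GC of 1.26 for cells and 0.629 for vesicles. The order held with edgeR's TMM scaling, at 1.25 for cells and 0.847 for vesicles. With DESeq2's size factors, at 1.23 and 0.820, cells and vesicles stood about equally far apart. Reads of the cluster numbered 245416 (RC) and 177254 (GC) in the cells, but 15685 (RC) and 14273 (GC) in the vesicles, so that the interval around each share reached at most 0.0238 percentage points to either side.

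miR-199a-5p, the strand that targets Hif1a, was the most abundant product in both cell libraries. In the resting zone it held 2.07% of miRNA reads in cells and 0.499% in MVs, and in the growth zone 1.25% in cells and 0.387% in MVs. Both vesicle libraries were below both cell libraries, and the intervals did not overlap. By abundance it ranked 8 in both cell libraries, below miR-22-3p in RC-cells and below miR-27b-3p in GC-cells. Its rank was 28 in RC-MVs, where it could not be separated from miR-148a-3p with 5540 reads against 5530, and 27 in GC-MVs, where it could not be separated from miR-10a-5p with 3812 reads against 3807 or from miR-370-3p with 3712 reads.

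miR-199a-3p, the strand that targets Smad1, comes from the other arm of the same hairpin and was the most abundant product in both vesicle libraries. Its share was 1.46% in cells and 0.687% in MVs of the resting zone, and 0.990% in cells and 0.921% in MVs of the growth zone. RC-cells were the highest library and RC-MVs the lowest, and both growth zone libraries lay between them. It ranked 10 in RC-cells, 22 in RC-MVs and 11 in both libraries of the growth zone. In GC-MVs the next lower miRNA, let-7b-5p at 0.910%, lay within its interval from 0.902% to 0.940%.

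miR-214-3p, the guide strand of Mir214, was the third product by abundance in each library. Cells and MVs of the resting zone held 0.194% and 0.206% of miRNA reads, and those of the growth zone 0.125% and 0.117%. Both resting zone libraries lay above both growth zone libraries. Within the growth zone the counting intervals of cells (0.122% to 0.127%) and MVs (0.111% to 0.124%) overlapped, and within the resting zone they came close to touching without overlap. Its ranks ran from 44 in RC-cells to 58 in GC-MVs.

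miR-214-5p, the passenger strand, was the least abundant product in each library. In the resting zone it held 0.0357% in cells (2326 reads) and 0.0228% in MVs (253 reads), and in the growth zone 0.0235% in cells (1744 reads) and 0.0268% in MVs (263 reads). RC-cells stood above the other 3 libraries, of which the interval of GC-MVs, from 0.0237% to 0.0302%, overlapped those of RC-MVs and GC-cells. The counts of the vesicle libraries were the smallest of the cluster.

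**Figure D1:**
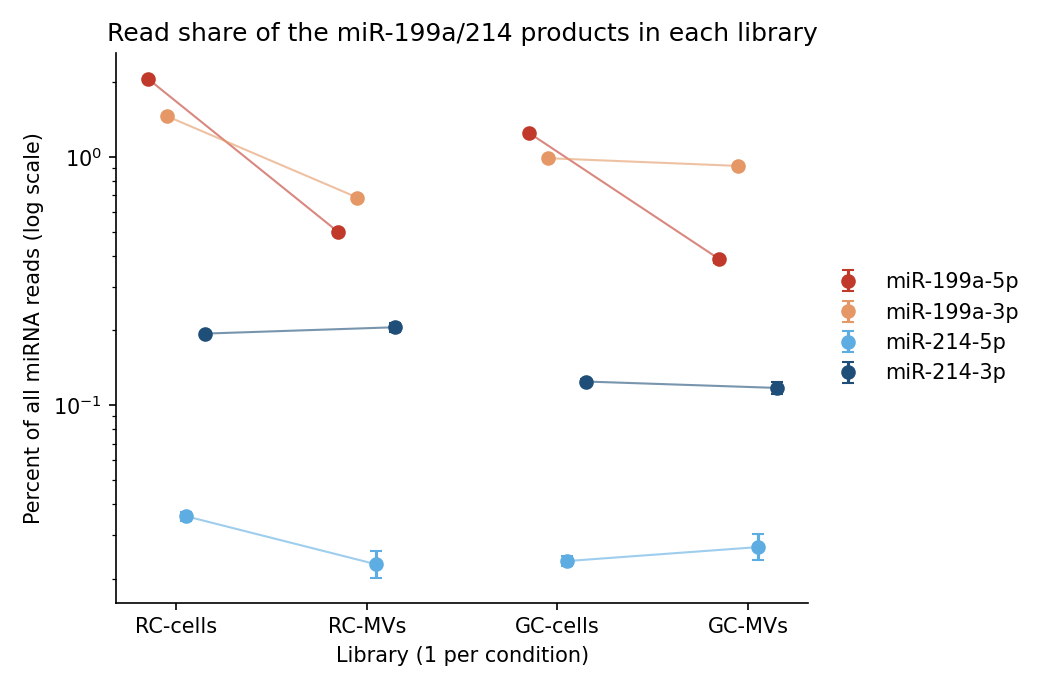
Percent of all miRNA reads (log scale) of the 4 products in each of the 4 libraries, with Wilson 95% intervals for counting error, which are mostly smaller than the points. Lines join cells and MVs of 1 zone, and miR-199a-5p lies above miR-199a-3p in both cell libraries and below it in both vesicle libraries.

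The make-up of the cluster's own reads does not depend on how libraries are scaled. Of the cluster's reads, miR-199a-5p took 55.0% in RC-cells and 52.4% in GC-cells, but 35.3% in RC-MVs and 26.7% in GC-MVs. miR-199a-3p took 38.9% in RC-cells and 41.4% in GC-cells, against 48.6% in RC-MVs and 63.4% in GC-MVs. The cells of the zones differed by at most 2.63 percentage points in the share of any product, while their vesicles differed by up to 14.8 points. Both arms of Mir214 together made up 6.11% of the cluster in RC-cells and 6.19% in GC-cells, 16.2% in RC-MVs and 9.92% in GC-MVs.

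**Figure D2:**
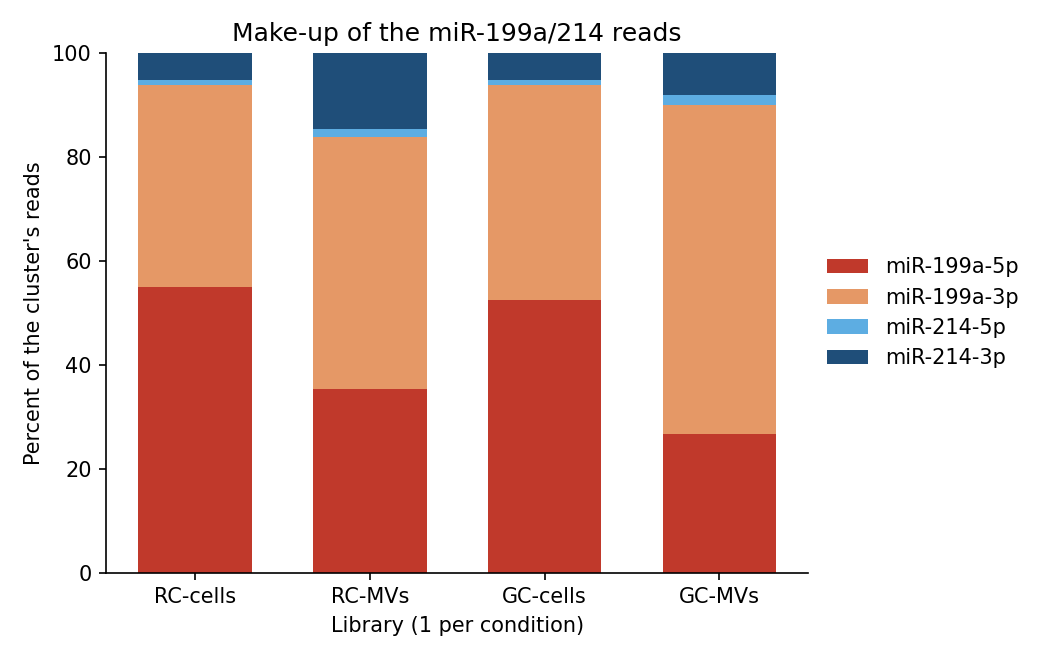
Percent of the cluster's reads that each product takes in each library (1 per condition, bars add up to 100%). The bars of RC-cells and GC-cells are alike, miR-199a-5p shrinks in both vesicle bars, and miR-214-3p is widest in RC-MVs at 14.6%.

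Within a library, reads of miR-199a-5p were 1.42 times those of miR-199a-3p in RC-cells (95% interval from 1.41 to 1.43) and 1.27 times in GC-cells (1.25 to 1.28). In the vesicles the order was turned, as reads of miR-199a-3p were 1.38 times those of miR-199a-5p in RC-MVs (1.33 to 1.43) and 2.38 times in GC-MVs (2.29 to 2.47). All 4 intervals lay away from 1. By read counts, the more abundant arm of miR-199a was thus 5p in the cells and 3p in the MVs of both zones. Such counts also depend on how well each sequence is ligated and amplified, so molecules of the arms were not compared.

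For Mir214, 3p was the more abundant arm in each library. Its reads were 5.44 times those of miR-214-5p in RC-cells (5.21 to 5.69) and 5.29 times in GC-cells (5.03 to 5.57). In the vesicles the factor was 9.03 for RC-MVs (7.93 to 10.3) and 4.38 for GC-MVs (3.83 to 5.03). The cells of both zones could not be separated by this ratio. The vesicles lay on either side of the cells, above them in the resting zone and below them in the growth zone.

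To place these shifts, 62 precursors were compared that had at least 10 reads of both arms in all 4 libraries. On the log2 scale, the ratio of 5p to 3p reads of Mir199a2 moved by -0.96 between cells and MVs of the resting zone and by -1.59 between those of the growth zone. The median size of the shift over all precursors was 1.66 for the resting and 1.08 for the growth zone, and 47 and 21 precursors, respectively, shifted more than Mir199a2. For Mir214 the shifts were -0.73 and 0.27, smaller in size than those of 51 and 54 precursors. A change of the more abundant arm between cells and vesicles in both zones was found for 7 of the 62 precursors, and Mir199a2 was one of 3 that went from 5p in cells to 3p in MVs. The others were Mir330 and Mir493, while Mir181c, Mir423, Mir485 and Mir674 went from 3p to 5p, and these names were picked after their values were seen.

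**Figure D3:**
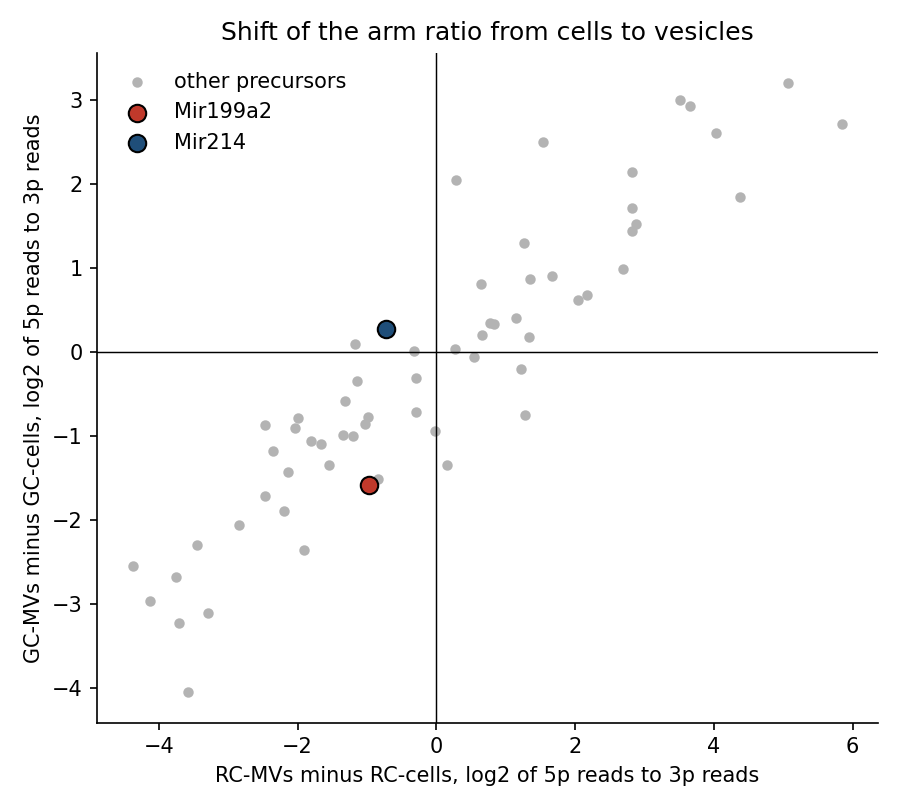
Shift of log2 (5p reads to 3p reads) from cells to MVs in the resting zone (x axis) and the growth zone (y axis) for 62 precursors, 1 point each. Mir199a2 lies at -0.96 and -1.59, where the 5p arm loses reads relative to 3p in both zones, and Mir214 lies near the origin.

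The study's measure of packaging was the ratio of a miRNA's percent in MVs to that in the parent cells. In the resting zone the share of the cluster in the MVs was 2.66-fold below that in the cells (2.62 to 2.71). miR-199a-5p was 4.16-fold lower (4.05 to 4.27) and miR-199a-3p was 2.13-fold lower (2.08 to 2.18). miR-214-5p was 1.56-fold lower (1.37 to 1.79), and the ratio of miR-214-3p was 1.06 (1.01 to 1.11). By the 2-fold threshold of the study, 2 of the 4 products were lower in RC-MVs and 0 were higher, where 30.4% of the 414 miRNAs with reads in both libraries were lower and 33.6% higher. The median log2 ratio was -0.87 over the 4 products and 0.08 over the 414 miRNAs.

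The products of this one locus thus ran from a ratio near 1 to a loss of about 4-fold. Of the cluster's difference of 2.35 percentage points between RC-cells and RC-MVs, miR-199a-5p made up 66.9% and miR-199a-3p 33.0%. For 293 miRNAs each of these libraries had 10 reads or more, and 42 of them had a lower ratio than miR-199a-5p, 77 a lower ratio than miR-199a-3p, 99 than miR-214-5p and 142 than miR-214-3p. miR-214-3p lay close to the middle of all miRNAs. With edgeR's TMM scaling the ratio of miR-214-3p was 0.996, and with the 3 abundant miRNAs kept out of the totals it was 0.917, so its direction turned, while with DESeq2's size factors it was 1.03.

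In the growth zone the share of the summed cluster in the MVs was 1.65-fold below that in the cells (1.62 to 1.67). miR-199a-5p was 3.23-fold lower (3.13 to 3.34). By percents the other 3 products stayed close to 1. The ratio was 0.931 for miR-199a-3p (0.910 to 0.951), 0.943 for miR-214-3p (0.886 to 1.00) and 1.14 for miR-214-5p (0.996 to 1.30). Of the 4 products, 1 was at least 2-fold lower, where 25.2% of 417 miRNAs were, and 0 were at least 2-fold higher, where 32.1% were. The median log2 ratio was -0.09 over the products and 0.13 over the 417 miRNAs.

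miR-199a-5p made up 92.3% of the cluster's difference of 0.938 percentage points between GC-cells and GC-MVs. Here 275 miRNAs had 10 reads or more in each library, and 31 of them had a lower ratio than miR-199a-5p, while between 113 and 137 had a lower ratio than the other products. The directions of both arms of Mir214 depended on the scaling, since miR-214-5p was at 0.974 with TMM and miR-214-3p at 1.01 without the 3 abundant miRNAs in the totals, while with DESeq2's size factors they kept their sides at 1.03 and 0.851.

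**Figure D4:**
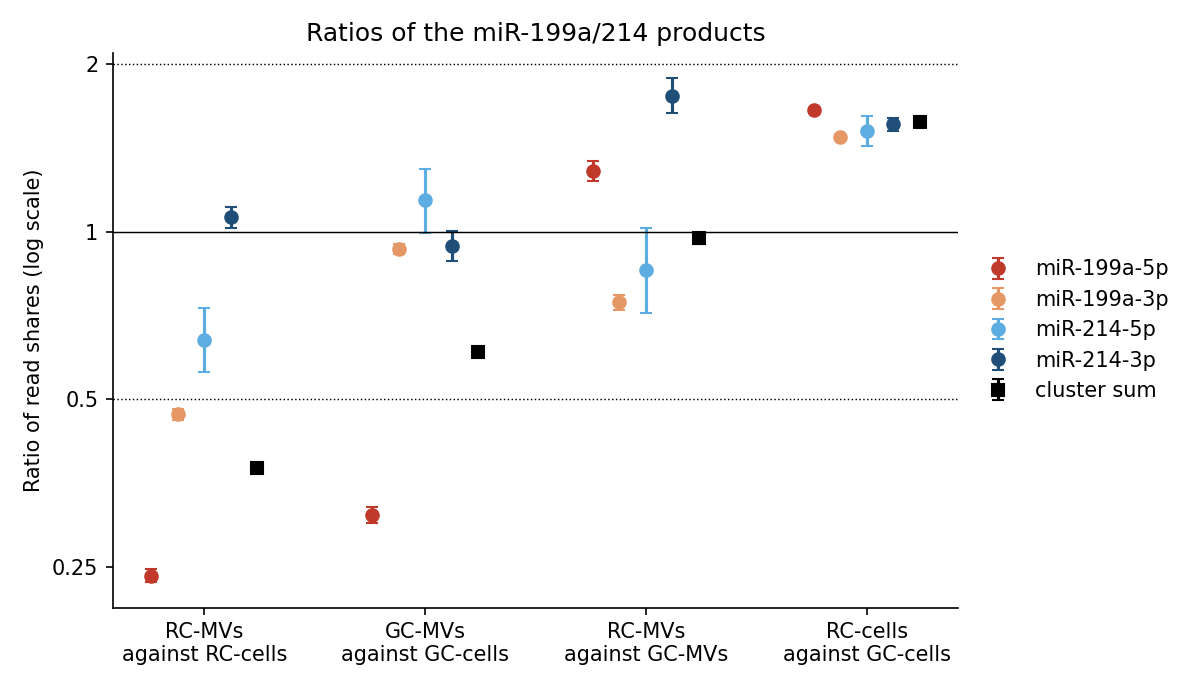
Ratio of read shares (log scale) of the 4 products and of their sum in 4 comparisons, with exact 95% intervals for counting error. The solid line marks equal shares and the dotted lines 2-fold, and miR-199a-5p lies below the lower dotted line in both comparisons of MVs with cells, while all points lie between 1.48 and 1.65 for RC-cells against GC-cells.

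Between arms of Mir199a2, the vesicle-to-cell ratio of 3p was 1.95 times that of 5p in the resting zone (1.88 to 2.02) and 3.01 times in the growth zone (2.89 to 3.13). Between the guide strand of Mir214 and miR-199a-5p, the vesicle-to-cell ratio of miR-214-3p was 4.41 times higher in the resting zone (4.19 to 4.64) and 3.05 times in the growth zone (2.84 to 3.27). miR-214-3p and miR-199a-3p differed by 2.26 times in the resting zone (2.15 to 2.38), and by 1.01 times in the growth zone (0.949 to 1.08), where equality lay inside the interval. miR-199a-5p was the product with the lowest vesicle-to-cell ratio in both zones, and these contrasts between products do not depend on the scaling.

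The vesicle-to-cell ratio in the resting zone was then divided by that in the growth zone. This quotient was 0.778 for miR-199a-5p (0.746 to 0.812), 0.505 for miR-199a-3p (0.489 to 0.521), 0.562 for miR-214-5p (0.468 to 0.675) and 1.13 for miR-214-3p (1.04 to 1.21). For the cluster it was 0.618 (0.604 to 0.633). Without the 3 abundant miRNAs in the totals the quotient of miR-214-3p was 0.906, which turns its direction, while with TMM it was 1.23 and with DESeq2's size factors 1.21. The other products stayed below 1 under these scalings, which were added for the quotients after seeing the data. By percents miR-199a-3p was slightly lower in vesicles than in cells of the growth zone, and more so in the resting zone. Its growth zone ratio was 0.797 with TMM, 0.840 with DESeq2's size factors and 0.999 without the 3 abundant miRNAs in the totals. For 262 miRNAs with 10 reads or more in every library, the log2 quotients had a 10th percentile of -1.08 and a 90th percentile of 1.07, and those of all 4 products lay between these, the lowest being -0.99 for miR-199a-3p.

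Between the vesicle libraries, the cluster was nearly level, with a ratio of RC-MVs to GC-MVs of 0.974 (0.952 to 0.996). miR-214-3p was 1.76-fold higher in RC-MVs (1.64 to 1.89) and miR-199a-5p 1.29-fold higher (1.23 to 1.34). miR-199a-3p was 1.34-fold higher in GC-MVs (1.30 to 1.38), and the interval for miR-214-5p, from 0.714 to 1.02, included equality. By 2-fold, 0 of the 4 products differed, where 39.3% of 397 miRNAs did in either direction. Without the 3 abundant miRNAs in the totals, the cluster's ratio fell to 0.629, that of miR-199a-3p to 0.482, which passes 2-fold, and that of miR-199a-5p to 0.832, which is the opposite direction. That of miR-214-3p fell to 1.13 and that of miR-214-5p to 0.551.

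Between the cell libraries, all 4 products were higher in RC-cells and by nearly the same factor. The ratio of RC-cells to GC-cells was 1.65 for miR-199a-5p (1.64 to 1.67), 1.48 for miR-199a-3p (1.46 to 1.49), 1.52 for miR-214-5p (1.43 to 1.62) and 1.56 for miR-214-3p (1.52 to 1.60). For the cluster it was 1.58 (1.57 to 1.58). With TMM scaling it was 1.25, with DESeq2's size factors 1.23 and without the 3 abundant miRNAs 1.26, so all products stayed higher in RC-cells but by a smaller factor. By 2-fold, 0 of the 4 differed, where 19.4% of 474 miRNAs did.

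Products of the 2 genes were also compared within each library. Reads of miR-199a-3p were 7.53 times those of miR-214-3p in RC-cells (7.39 to 7.67) and 7.95 times in GC-cells (7.78 to 8.12). In GC-MVs they were 7.85 times (7.38 to 8.35), but only 3.33 times in RC-MVs (3.18 to 3.49). Reads of miR-199a-5p were 10.7 times those of miR-214-3p in RC-cells and 10.1 times in GC-cells, against 2.42 times in RC-MVs and 3.30 times in GC-MVs. A read count also depends on how well each sequence is ligated and amplified, so these values compare libraries and not molecules of different products.

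The miRNAs whose pattern over the 4 libraries was most like that of each product were sought among 131 miRNAs with 100 reads or more in every library, by the root-mean-square difference of log2 percents after centring. For miR-199a-5p they were let-7e-5p (0.19), miR-136-3p (0.21), miR-495 (0.21), miR-494-3p (0.23) and miR-27b-3p (0.25). For miR-199a-3p the nearest was miR-24-3p at 0.07, followed by miR-214-5p at 0.20, miR-146b-5p at 0.20, miR-22-5p at 0.21 and let-7d-3p at 0.22. For miR-214-3p the nearest was miR-433-3p at 0.09, followed by let-7c-5p at 0.15, miR-300-3p at 0.15, miR-30a-3p at 0.17 and miR-99a-5p at 0.17. The other arm of Mir199a2 came only at place 34 for miR-199a-5p, with a difference of 0.70, and miR-214-3p at place 49 with 0.95. For each product the nearest miRNA thus came from another locus, and miR-214-5p beside miR-199a-3p was the only product among the 5 nearest of another. With 4 libraries this likeness is a description.

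miR-24-3p, which shares its primary transcripts with miR-23 and miR-27, held 0.958% in cells and 0.513% in MVs of the resting zone, and 0.670% and 0.622% in those of the growth zone. Its share was between 0.655 and 0.746 times that of miR-199a-3p in each library. miR-27b-3p, near in pattern to miR-199a-5p, had a log2 ratio of MVs to cells of -2.58 (resting zone) and -2.10 (growth zone).

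Base composition was compared because the products differ in it. Across miRNAs with a RefSeq sequence and 10 reads or more in each library, G+C content and the log2 ratio of MVs to cells had a Spearman rho of 0.56 in the resting zone (265 miRNAs) and 0.51 in the growth zone (251 miRNAs). For RC-MVs against GC-MVs rho was 0.35 over 246 miRNAs, and for RC-cells against GC-cells it was -0.02 over 344 miRNAs. These are descriptions across miRNAs of the same pair of libraries. In the resting zone the median log2 ratio was 0.94 for miRNAs above the median G+C content of 47.8% and -0.88 for the others, and in the growth zone 0.83 and -0.51. For RC-MVs against GC-MVs these medians were 0.55 and -0.17.

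Against this order miR-199a-5p lay low. It is above the median G+C content but had a log2 ratio of -2.06 in the resting zone, where only 3 of the 131 other miRNAs above the median had a lower one, and of -1.69 in the growth zone, where 5 of 121 did. miR-214-3p, the product richest in G+C, had a lower ratio than most of its side, as 34 of 131 miRNAs (resting zone) and 28 of 121 (growth zone) lay below it. miR-199a-3p lay near the middle of the miRNAs at or below the median, with 60 of 132 (resting zone) and 75 of 128 (growth zone) below it. On the same side, miR-214-5p had 73 of 132 (resting zone) and 84 of 128 (growth zone) below it, with a G+C content taken from its 17-base annotation. The part of base composition in the ratios of the products was not tested.

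**Figure D5:**
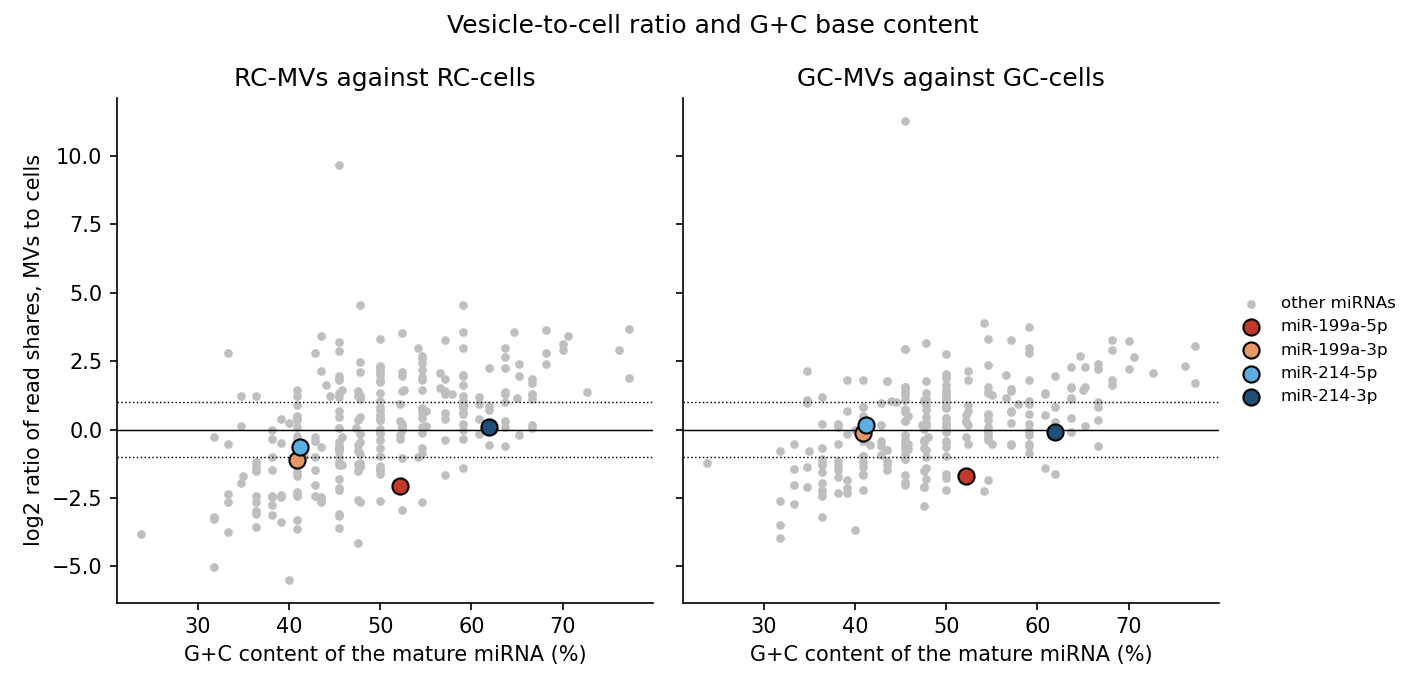
Log2 ratio of read shares of MVs to cells against G+C content of the mature miRNA, for miRNAs that reached 10 reads in each library of the resting zone (left) and the growth zone (right). Dotted lines mark 2-fold, and miR-199a-5p (52.2% G+C) lies at the lower edge of the miRNAs of similar base composition in both panels.

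Other miRNAs known from cartilage and bone were set beside the cluster. Of 25 listed, 22 were in the table and 19 had reads in both libraries of each comparison. In RC-MVs against RC-cells, 11 of the 19 were at least 2-fold lower and 2 higher, against 30.4% lower and 33.6% higher over all miRNAs, and their median log2 ratio was -1.28 against 0.08. In GC-MVs against GC-cells, 7 were lower and 4 higher, against 25.2% and 32.1% over all miRNAs, and their median was -0.37 against 0.13.

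Of these miRNAs, 14 had at least 1000 reads in both cell libraries. miR-26a-5p, which is known to target Ezh2, was 9.84-fold lower in MVs than in cells of the resting zone and 4.58-fold lower in those of the growth zone. miR-140-5p, a cartilage miRNA, was 8.37-fold lower in RC-MVs and 3.75-fold lower in GC-MVs, while miR-140-3p from the same hairpin was higher in MVs, with log2 ratios of 1.31 and 0.65. miR-29a-3p, a regulator of collagens, was 3.02-fold lower in RC-MVs and 1.17-fold lower in GC-MVs. miR-27a-3p was 7.61-fold and 3.61-fold lower, miR-218a-5p 5.53-fold and 2.22-fold lower, and miR-455-5p 2.66-fold and 2.57-fold lower. miR-222-3p was 2.04-fold and 1.45-fold lower, and miR-23b-3p 2.42-fold and 1.29-fold lower. miR-221-3p was 1.38-fold lower in RC-MVs and had a log2 ratio of 0.22 in GC-MVs. The log2 ratios of miR-145-5p were 0.93 and 0.33, those of miR-23a-3p 0.36 and 1.06, and those of the hypoxia-induced miR-210-3p 1.38 and 1.13.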

How the data were processed

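Small RNA from 4 libraries, 1 per condition, was sequenced on an Illumina instrument. Raw read counts per annotated miRNA were deposited, which the authors made with Bowtie2 on the rat build Rnor_6.0 and miARma-Seq. Tool versions, adapter trimming and how multi-mapping reads were counted are not given in the sources used here.

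Counts of equal miRNA names were summed (774 loci, 740 names), and each was given as a percent of the library total. Shares have Wilson intervals, ratios of counts have exact Clopper-Pearson intervals, and ratios of ratios have log-normal intervals. All are at the 95% level and cover counting error only, and reads without molecular identifiers are not independent molecules. A difference was called at 2-fold where each library had at least 1 read. The scripts were tested on simulated data. Positions among all miRNAs used at least 10 reads in both libraries.

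The miRNAs named are the 4 products, the miRNAs next to them in rank (those needed to read a rank), for miR-199a-3p, miR-199a-5p and miR-214-3p the 5 most like in pattern, miRNAs that share a seed (none was found for bases 2 to 8), the marker miRNAs of other cell types and the members of the skeletal list with at least 1000 reads in both cell libraries. miR-3120 and the precursors that changed arm were named after their values were seen. The products and lists were chosen with earlier results of these data known. Alternatives were edgeR's TMM, DESeq2's size factors, totals that leave out miR-21-5p, miR-143-3p and miR-22-3p, the highest locus of each name, a pseudocount of 0.5 and thinning to 982543 reads in 100 draws.

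Mature sequences came from RefSeq on GRCr8 and matched 482 of 538 miRNAs with reads. The PCR array and RT-qPCR were not used here. Python 3.11.15, numpy 2.4.6, pandas 2.3.3, scipy 1.17.1, matplotlib 3.10.9, R 4.3.3, edgeR 4.0.16 and DESeq2 1.42.0 were used.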

Additional observations from a re-analysis of the deposited data

Results flagged for a closer look

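Both arms of Mir214 had vesicle-to-cell ratios on opposite sides of 1 in the zones by percents, although both intervals of the growth zone include 1 (0.996 to 1.30 for miR-214-5p and 0.886 to 1.00 for miR-214-3p). For miR-214-5p they were 0.639 (resting) and 1.14 (growth), a quotient of 0.562. For miR-214-3p the ratios were 1.06 and 0.943, a quotient of 1.13. With 1 library per condition the difference between zones was not tested. With TMM neither arm lay on opposite sides, as the ratios were 0.600 (resting) and 0.974 (growth) for miR-214-5p, and 0.996 and 0.807 for miR-214-3p. With DESeq2's size factors both arms did, at 0.622 and 1.03 for miR-214-5p and 1.03 and 0.851 for miR-214-3p. For miR-214-3p both ratios changed side when miR-21-5p, miR-143-3p and miR-22-3p were not part of the totals, to 0.917 and 1.01, so that the order of the zones turned as well, while miR-214-5p kept its sides at 0.553 and 1.22. miR-214-5p rests on 253 and 263 vesicle reads.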

How the results depend on the processing

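The ratio of the summed cluster moved outside its counting interval under the other scalings. For RC-MVs against RC-cells it was 0.376 with percents of all miRNA reads, 0.353 with TMM, 0.366 with DESeq2's size factors and 0.325 when miR-21-5p, miR-143-3p and miR-22-3p were not part of the totals. For GC-MVs against GC-cells it was 0.608 with percents and 0.520, 0.548 and 0.652 in the same order of settings. For RC-MVs against GC-MVs it was 0.974, and 0.847, 0.820 and 0.629, the cluster's largest change here. For RC-cells against GC-cells it was 1.58, and 1.25, 1.23 and 1.26, and with the highest locus of each name it was 1.59. The cluster's quotient between zones, 0.618 with percents, was 0.678, 0.666 and 0.498, which were added after seeing the data. In each of the 4 comparisons of libraries the cluster stayed on its side of 1 and of 2-fold.

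The 3 calls of at least 2-fold lower shares in MVs, for miR-199a-5p in both zones and miR-199a-3p in the resting zone, were kept in all 6 alternatives. The highest locus, the pseudocount and thinning left all 16 ratios of single products inside their intervals. Ratios between products of 1 library are free of the scaling.

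Over all miRNAs, 265 of 414 were called at 2-fold in either direction for RC-MVs against RC-cells, and 184 of 293 with at least 10 reads, 179 of 414 with the whole interval beyond 2-fold and 143 of 414 at 4-fold. In the same order the counts were 239 of 417, 144 of 275, 134 and 101 for GC-MVs against GC-cells, 156 of 397, 97 of 271, 61 and 32 for RC-MVs against GC-MVs, and 92 of 474, 50 of 379, 24 and 20 for RC-cells against GC-cells.

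Depth limits miR-214-5p most, with 253 and 263 reads in the vesicle libraries. The spread between replicate sequencing libraries is unknown for all products. The study also ran a PCR array, whose published list of differences between RC-MVs and RC-cells names none of these products. Its values were not used here, and whether it assayed the products was not checked.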
